A study of Mus musculus with 96 samples.

Results

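Sprouty proteins, Spred proteins and Errfi1 are feedback inhibitors of growth factor signalling. The 7 genes described here (Spry1, Spry2, Spry4, Spred1, Spred2, Spred3 and Errfi1) were chosen by gene symbol, and all 7 were found among the 15895 genes of the deposited table. Serum carries growth factors that open receptor tyrosine kinases, and adaptors pass the signal to Ras, then to the kinases Raf, MEK and ERK. Active ERK induces a set of genes, some of which encode brakes on the same cascade. Sprouty proteins act between the receptor and Raf, Spred proteins bring the Ras inactivator neurofibromin to the membrane, and Errfi1 (also called Mig6) binds the kinase domain of the EGF receptor and its relatives.

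Primary mouse embryonic fibroblasts (MEFs) of the Cf-1 strain, prepared at embryonic day 13, were starved for 36 h in medium with 0.5% serum before serum was added to 20%, and polyA RNA was sequenced over 2 time courses, here called series 1 and series 2. Series 1 gave 63 libraries up to 38 h after serum and series 2 gave 32 libraries up to 27 h. Each series had 2 starved libraries, taken 1 h before serum and at 0 h, and each later hour was sampled once in a series. After 3 h series 2 was sampled only at whole hours, so it lacks the 3.5, 4.5 and 6.5 h libraries of series 1. Some highs and lows of series 1 fell at those hours, so their times and folds were not sampled alike. The cells carried no transgene or drug, and there was no time course without serum, so the effect of serum and that of time in culture cannot be told apart. The sources used here do not say whether the series came from separate embryos or cultures, and p-values measure only the spread between these libraries.

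The libraries held 5067432 to 14500278 reads as recovered from their values (median 10832557). Each value is a normalized signal, made from the exon reads of a gene after the authors set all libraries to a common total. The 10 fibroblast markers summed to between 398700 and 554400 in the starved libraries, against at most 3398 for any of the lists of endothelial, macrophage and blood cell, epithelial, muscle, neural and red blood cell markers. Of the 6 red blood cell markers listed only 1 was measured, and the globin genes were absent, so that list cannot show whether such cells were present. After serum the neural list reached 4831 and the macrophage and blood cell list 4782, against at least 188700 for the fibroblast markers. Of the markers measured in those lists, only the neuronal gene Elavl3 was at 0 in most libraries. The neural list that holds it still summed to between 697.4 and 1138 in the starved libraries. In these bulk samples fewer cells of a type and less RNA per cell cannot be told apart. Tested contrasts were made with limma over all genes at the 29 hours that both series share. A gene was called in a window of hours when its Benjamini-Hochberg adjusted p was under 0.05 and its log2 change from starved was above 1 in size.

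Before the results, 2 features of the libraries bear on them. Errfi1 and Spry4 differed between the starved libraries of a series by more than 1.5-fold. At the end of both series the values of Spry4, Errfi1 and Spry2 fell far below their earlier ones. In series 2 the low values came in its single last library, at 27 h. Over 10485 genes with a mean value of 50 or more, that library had a Pearson r of 0.983 with series 2 at 24 h. The r was 0.979 with series 1 at 34 h and 0.968 with series 1 at 27 h. Such values were high for most late libraries, so they cannot show whether the 27 h library is sound. The hours of series 1 after 27 h were not in the fit, and the results for 24 to 27 h are given with and without the 27 h libraries.

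**Figure D1:**
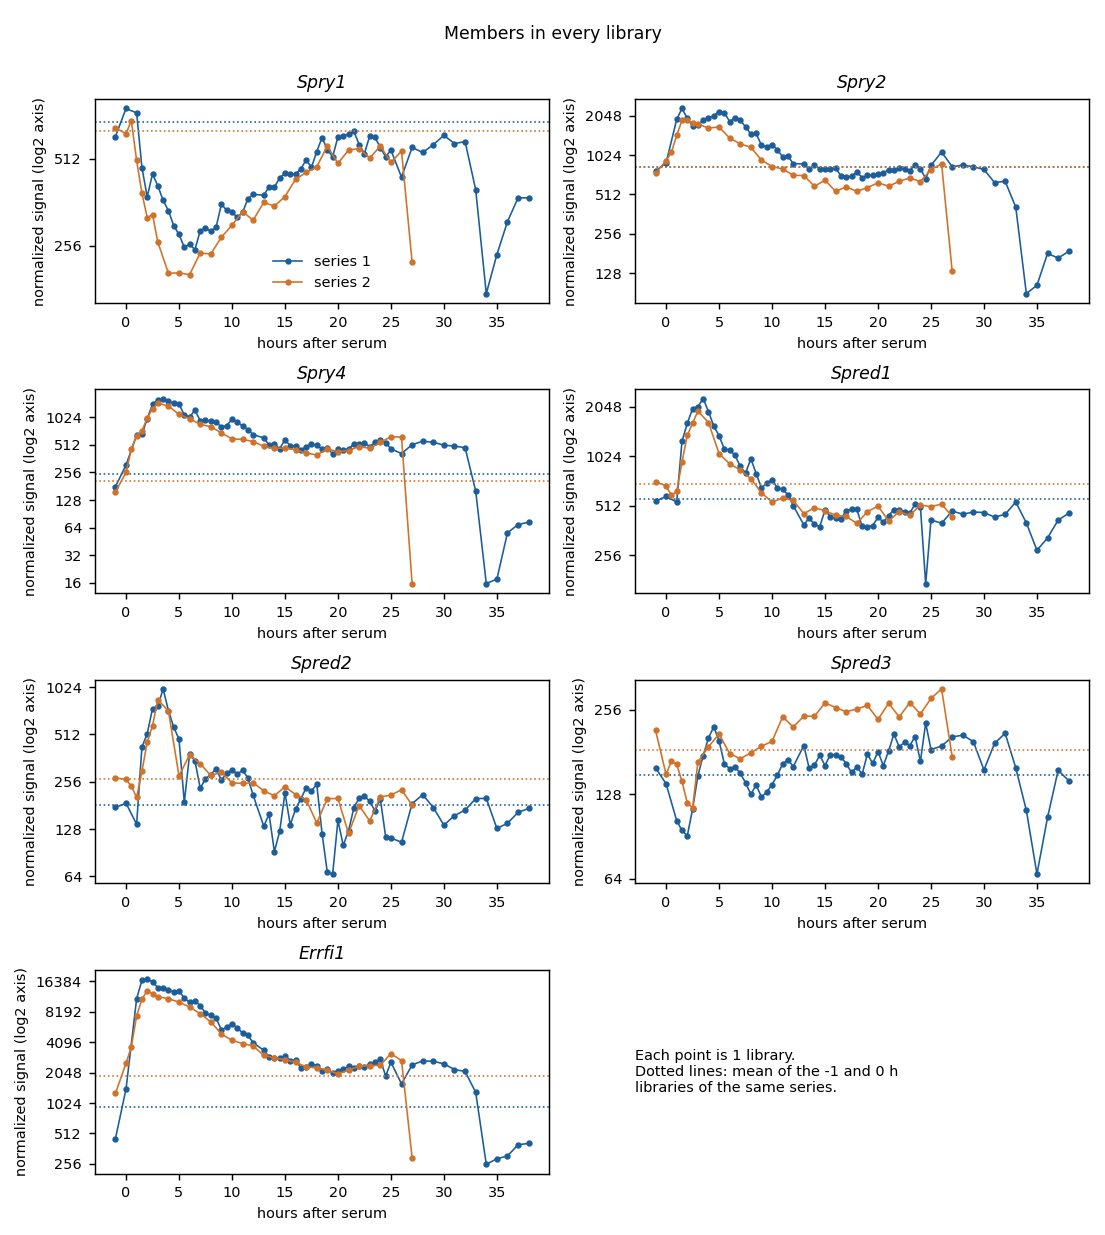
Normalized signal of the 7 genes (log2 axis) against hours after serum, with 1 point per library, series 1 in blue, series 2 in orange and dotted lines at the mean of the starved libraries of each series. Errfi1 climbs to 17118 and 13187 at 2 h, Spry1 falls to a low near 6 h, and Spry4, Spry2 and Errfi1 drop at the last hours of both series.

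After serum 5 of the 7 genes rose within 3 h, Spry1 fell and Spred3 moved by less than the fold limit. At 1 to 1.5 h, 3 of the 7 (Errfi1, Spry4 and Spry2) were called higher and 0 lower, where 3.45% of all genes were called higher and 4.9% lower. At 2 to 3 h Spred1 and Spred2 joined them, which gave 5 of 7 higher and 0 lower, beside 6.93% and 18.6% of all genes. At 4 to 6 h the same 5 were higher and Spry1 was lower, beside 7.81% and 19.6%. The median log2 change of the 7 genes was 1.48 at 2 to 3 h, where that of all genes was -0.32. An F test over the 29 shared hours called 6 of the 7, all but Spred3, where 52.5% of all genes were called.

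The number of raised genes then shrank. Errfi1 and Spry4 were the 2 called higher at 7 to 10 h (7.29% of all genes higher, 17.0% lower, with Spry1 the 1 lower gene), and the same 2 were called at 11 to 14 h (6.97% and 16.5%) and at 15 to 18 h (6.93% and 16.8%). Only Spry4 was called at 19 to 23 h (6.99% and 18.4%). At 24 to 27 h 0 of 7 were called by limma in either direction (6.42% and 19.2%), although 4 of the 7 had an unadjusted p under 0.05 and edgeR on whole reads called 1. Without the 27 h libraries, 2 were called there, Spry4 with a log2 change of 1.29 ± 0.14 (SE) and Errfi1 with 1.05 ± 0.24.

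**Figure D2:**
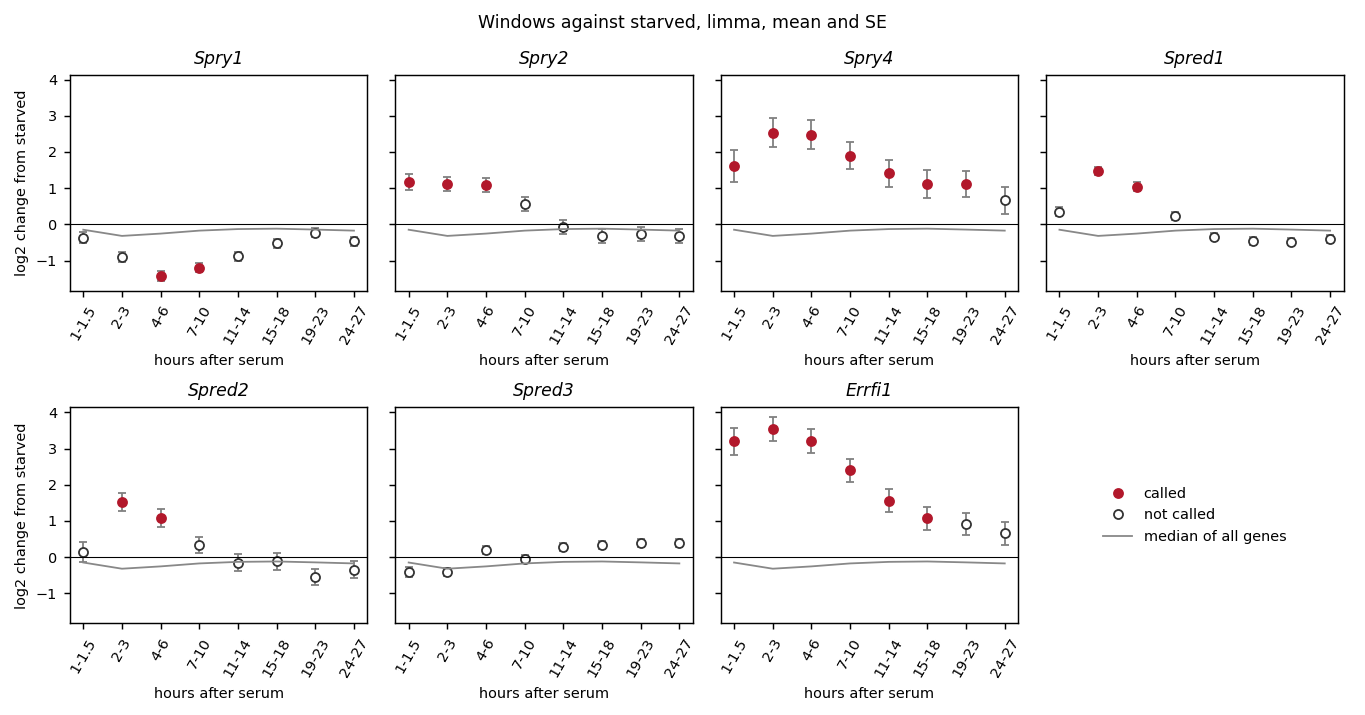
Log2 change of each gene from the starved libraries in 8 windows of hours (points, with bars of 1 SE from limma), filled where called, and the median of all genes as a grey line. Errfi1 stands at 3.54 in the 2 to 3 h window, Spry1 reaches -1.43 at 4 to 6 h, and Spred1 and Spred2 are called only at 2 to 3 h and 4 to 6 h.

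Errfi1 had the largest response of the 7. It encodes an adaptor that binds the activated EGF receptor, blocks its kinase and hastens its breakdown, and it lies on mm9 at chr4:150228028-150243001 (+). Its starved values were 455 and 1409 in series 1 and 1274 and 2522 in series 2, in each case with the 0 h library higher. At 1 h it stood at 10983 in series 1 and 7423 in series 2. The highest values came at 2 h in both, 17118 or 18.4-fold over starved in series 1 and 13187 or 6.95-fold in series 2. Every library from 1 to 14 h lay above all 4 starved ones.

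The log2 change of Errfi1 was 3.20 ± 0.36 (SE) at 1 to 1.5 h and 3.54 ± 0.33 at 2 to 3 h (limma adjusted p = 6.55e-11). By series, the change at 2 to 3 h was 4.29 and 2.78. The starved values were higher in series 2, and the values at 2 to 3 h were higher in series 1 (medians of 16141 and 12310). What set the gap was not tested. Errfi1 then declined by step, by 0.80 log2 from 4 to 6 h into 7 to 10 h (limma adjusted p = 0.0302). From there into 11 to 14 h it fell by 0.83 (limma adjusted p = 0.0262). At 15 to 18 h it was still 1.08 ± 0.32 above starved. That last call was lost without the starved library of series 1 taken 1 h before serum, when the log2 change was 0.57 (limma adjusted p = 0.0943). It was also lost by edgeR, with a log2 change of 0.86, and with series 2 alone. By series the change at 15 to 18 h was 1.69 in series 1 and 0.47 in series 2. The gene stayed above 0.5 of its highest rise from 1 to 7 h in series 1 and from 1.5 to 7 h in series 2. A non-coding gene on the other strand, 1700045H11Rik, overlaps 187 exon bases of Errfi1, and reads were counted on both strands, so their reads there cannot be told apart.

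A promoter stretch of Errfi1 is shown because it holds the one match to the full cyclic AMP response element (CRE, TGACGTCA, searched on both strands) among the promoters of the 7 genes. RefSeq promoters, from 250 bases before to 50 after a start, were in the table for 6 genes, 7 promoters in all, and for Spry4 none. The stretch is on GRCm38.p6 at chr4:150854989-150855056 (+), positions -81 to -14 from the second listed start of Errfi1, with the CRE in capitals.
Errfi1 promoter: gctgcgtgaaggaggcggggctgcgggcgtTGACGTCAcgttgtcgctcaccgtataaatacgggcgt
Of all 32851 promoters searched, 1.79% held this motif. The AP-1 letters TGANTCA (7.81% of promoters) and the CArG box (1.63%) were in none of the 7 promoters.

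Spry4 peaked later than Errfi1, and it was the 1 member called higher at 19 to 23 h, close to the fold limit. It encodes a Sprouty protein that dampens signalling from FGF and other receptors, and it lies on chromosome 18. Starved values were 179 and 308 in series 1 and 156 and 256 in series 2. In series 2 it was already at 457 after 0.5 h, an hour that series 1 lacks. It peaked at 3.5 h in series 1 with 1621, a 6.66-fold rise, and at 3 h in series 2 with 1448, a 7.02-fold rise. Series 2 had no library at 3.5 h. Every library of both series from 1 to 26 h lay above the 4 starved ones, and at 27 h the series parted, with 512 and 15.7.

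Spry4 stood 2.53 ± 0.40 (SE) log2 above starved at 2 to 3 h (limma adjusted p = 1.76e-06) and 2.48 ± 0.40 at 4 to 6 h. It settled on a plateau above the starved level, with a median of 500.4 over 12 to 26 h in series 1 and 467.5 in series 2, and a log2 change of 1.12 ± 0.38 at 15 to 18 h and 1.11 ± 0.37 at 19 to 23 h. These late changes lie close to the fold limit. Without the starved library of series 1 taken 1 h before serum they were 0.98 and 0.97, and without that of series 2 the change at 19 to 23 h was 1.00, so the calls were lost. By series the change at 19 to 23 h was 1.03 and 1.19 for Spry4 and 1.53 and 0.30 for Errfi1, so that Errfi1 stood higher above starved in series 1. The errors of Spry4 were widened by the 27 h library of series 2, and without the 27 h libraries the SE at 2 to 3 h fell from 0.40 to 0.14 with the same change.

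Spry2 was an early gene with a smaller rise. It encodes the Sprouty protein best known as a partner of the ubiquitin ligase Cbl and of Grb2, and it lies on mm9 at chr14:106291166-106296036 (-). Starved values were 771 and 894 in series 1 and 745 and 926 in series 2. The highest value in the first 10 h was 2321 at 1.5 h in series 1, a 2.79-fold rise, and 1888 at 2 h in series 2, a 2.26-fold rise. In series 1 it dipped to 1700 at 2.5 h and came back to 2200 at 5 h, whereas series 2 went from 1795 at 2.5 h to 1674 at 5 h without a second high. This difference between the series was not tested.

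The log2 change of Spry2 was 1.17 ± 0.22 (SE) at 1 to 1.5 h (limma adjusted p = 0.000116), 1.12 ± 0.20 at 2 to 3 h and 1.09 ± 0.20 at 4 to 6 h. The last of these was 0.99, under the fold limit, without the starved library of series 1 taken 1 h before serum. At 7 to 10 h it was 0.55 ± 0.19, under the fold limit, and from 11 to 14 h on its changes lay between -0.33 and -0.06, with adjusted p from 0.141 to 0.793. The fall from 4 to 6 h into 7 to 10 h was 0.54 log2 (limma adjusted p = 0.0182) and that into 11 to 14 h was 0.61 (limma adjusted p = 0.00744). Neither of these falls was called without the series as a block. Spry2 was thus no longer called in windows where Spry4 still was.

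Spry1 went the other way. This Sprouty gene, which in development limits GDNF and FGF signalling, lies on mm9 at chr3:37538869-37543520 (+). Starved values were 610 and 762 in series 1 and 653 and 624 in series 2. It held near that level at first, with 736 at 1 h in series 1 and 692 at 0.5 h in series 2. It reached its lowest value of the first 10 h at 6.5 h in series 1 (249, or 0.362 of starved) and at 6 h in series 2 (204, or 0.319). Every library of both series from 2 to 18 h lay below all 4 starved ones.

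Spry1 had a log2 change of -0.90 ± 0.13 (SE) at 2 to 3 h, -1.43 ± 0.13 at 4 to 6 h (limma adjusted p = 4.33e-11) and -1.19 ± 0.12 at 7 to 10 h. Its fall passed the test at the step from 1 to 1.5 h into 2 to 3 h (-0.53, limma adjusted p = 0.00145) and at the next (-0.53, limma adjusted p = 0.000469). Its return was slow. The step from 7 to 10 h into 11 to 14 h was 0.31 (limma adjusted p = 0.0356) and that into 15 to 18 h was 0.37 (limma adjusted p = 0.0451), and neither was called without the series as a block, with TMM rescaling or by edgeR. At 19 to 23 h it was -0.23 ± 0.12 (limma adjusted p = 0.0945).

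Spred1 and Spred2 moved alike, with a short, late rise. Spred1, the gene mutated in Legius syndrome, lies on mm9 at chr2:116947110-117008015 (+), and its product anchors neurofibromin at the plasma membrane. Starved values were 546 and 582 in series 1 and 714 and 676 in series 2. At 1 h it was still at 539 and 624, and it peaked at 3.5 h in series 1 (2287, or 4.05-fold) and at 3 h in series 2 (1926, or 2.77-fold). It was above 0.5 of its highest rise only from 2 to 4.5 h in series 1 and from 2 to 4 h in series 2. Series 2 had no library at 3.5 or 4.5 h, so peaks and widths were not sampled alike.

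The log2 change of Spred1 was 0.35 ± 0.13 (SE) at 1 to 1.5 h, under the fold limit, 1.48 ± 0.11 at 2 to 3 h (limma adjusted p = 8.13e-13) and 1.04 ± 0.11 at 4 to 6 h. Its step from 1 to 1.5 h into 2 to 3 h was 1.13 ± 0.11 (limma adjusted p = 2.20e-09). It came down by 0.44 into 4 to 6 h, by 0.81 into 7 to 10 h and by 0.57 into 11 to 14 h, each with a limma adjusted p under 0.05. From 11 to 14 h on it lay slightly under starved, at -0.34 to -0.47, inside the fold limit. One library departs from this course, series 1 at 24.5 h with 172, which was 1.42 log2 under the mean of its neighbours. The deviations of all genes in that library had a median size of 0.416 log2, against 0.0876 over 47 libraries, and the part of the library in the low value was not tested.

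Spred2, which shares the role of Spred1 and is best known for dampening ERK in blood and bone, lies on mm9 at chr11:19824378-19924029 (+). Starved values were 176 and 187 in series 1 and 271 and 265 in series 2. At 1 h it was below them in both series, at 138 and 204, and it then peaked at 3.5 h with 998 (5.50-fold) and at 3 h with 852 (3.18-fold). The curve is as narrow as that of Spred1, above 0.5 of its highest rise from 2.5 to 4 h in both series. It is also rougher, with single values of 189 at 5.5 h and 66.3 at 19.5 h in series 1.

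The log2 change of Spred2 was 1.53 ± 0.24 (SE) at 2 to 3 h (limma adjusted p = 2.13e-06) and 1.08 ± 0.24 at 4 to 6 h. By series the change at 4 to 6 h was 1.49 in series 1 and 0.66 in series 2. The calls of Spred1 and Spred2 at 4 to 6 h were both lost without the starved library of series 1 taken 1 h before serum, when the changes were 0.97 and 0.99. The promoter stretch of Spred2 is shown beside that of Errfi1 because it holds the core of the same element, the letters TGACG on the other strand (CGTCA, in capitals), with both matches beginning at position -51. It lies on GRCm38.p6 at chr11:19924361-19924425 (+), positions -81 to -17.
Spred2 promoter: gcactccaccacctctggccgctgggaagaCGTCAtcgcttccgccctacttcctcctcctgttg
The letters TGACG were in 20.8% of all promoters. The Ets letters CCGGAA (14.9% of promoters) had 1 match among the members, after the start of Spry2.

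Spred3 changed least. It encodes the Spred protein whose Kit-binding domain is not functional, and it lies on mm9 at chr7:29943848-29954860 (-). Starved values were 159 and 140 in series 1 and 217 and 151 in series 2. It dipped to 91.1 at 2 h in series 1 (0.61 of starved) and to 115 at 2.5 h in series 2 (0.623), and then recovered to 223 at 4.5 h and 210 at 5 h. The low values in series 1 from 1 to 2.5 h lay below all 4 starved libraries.

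No window of Spred3 passed the fold limit. Its log2 change was -0.41 ± 0.12 (SE) at 2 to 3 h (limma adjusted p = 0.0040) and 0.40 ± 0.11 at 19 to 23 h (limma adjusted p = 0.00198), both inside the limit. The first was -0.15 with TMM rescaling (adjusted p = 0.337) and by edgeR (adjusted p = 0.338), and its adjusted p was 0.11 without the series as a block. The second was 0.23 (adjusted p = 0.167) with the starved libraries taken 1 h before serum alone as the baseline, and its adjusted p was 0.0789 without the block. The recovery was called as a step, 0.61 ± 0.11 from 2 to 3 h into 4 to 6 h (limma adjusted p = 2.81e-05). Series 2 ran higher than series 1 in the later hours, with a median of 257.8 over 12 to 26 h against 176.8.

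**Figure D3:**
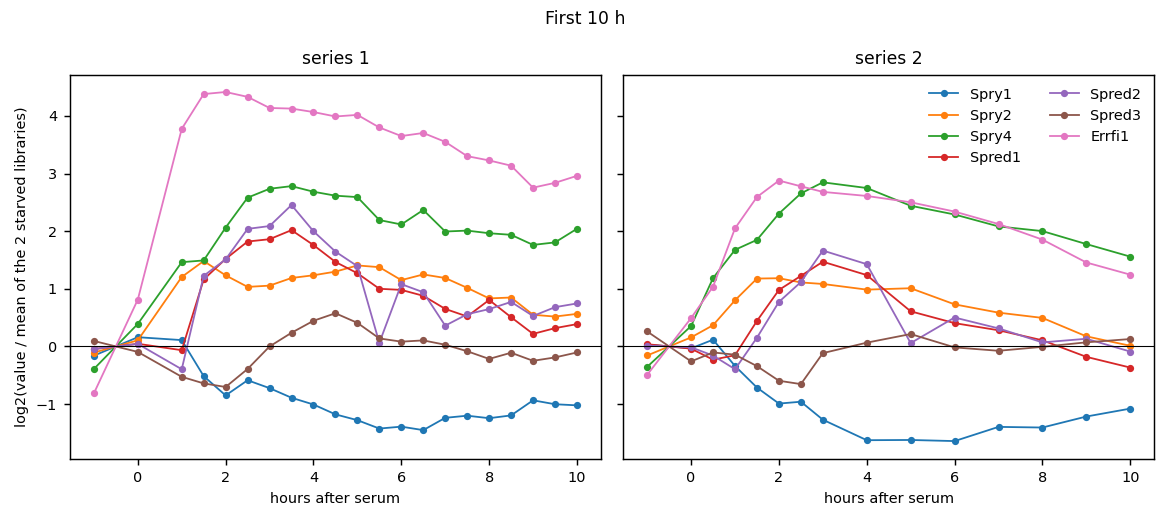
Log2(value + 1) of each library minus the mean of log2(value + 1) over the 2 starved libraries of its series. The first 10 h are shown with 1 point per library, series 1 on the left and series 2 on the right. Errfi1 and Spry2 rise first, Spry4, Spred1 and Spred2 peak at 3 to 3.5 h, and Spry1 sinks to about 6 h.

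The highest values came in much the same order in both series. Spry2 and Errfi1 came first, at 1.5 to 2 h, and Spry4, Spred1 and Spred2 followed at 3 to 3.5 h. Series 2 had no library at 3.5 h, the hour at which these later genes peaked in series 1. In the steps of the fit, from 1 to 1.5 h into 2 to 3 h, 2 of the 7 were called higher (Spred1 and Spred2) and 1 lower (Spry1), beside 13.6% and 24.8% of all genes. Spry4 gained 0.91 ± 0.40 (SE) log2 at that step (limma adjusted p = 0.0705), and 0.91 ± 0.14 without the 27 h libraries (limma adjusted p = 3.98e-06). Into 4 to 6 h Spred3 was higher and Spry1 and Spred1 were lower (24.8% and 15.0% of all genes).

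The later steps held both falls and rises. Into 7 to 10 h 4 of the 7 were lower, Spry2, Spred1, Spred2 and Errfi1, and 0 were higher, beside 9.3% of all genes lower and 17.2% higher. Without the 27 h libraries Spry4 and Spred3 were also lower there (limma adjusted p = 0.000348 and 0.0404), as they were by edgeR. Into 11 to 14 h 3 were lower, Spry2, Spred1 and Errfi1 (5.71% of all genes), and 2 higher, Spry1 and Spred3 (8.27%). Spry4 was also lower at that step without the 27 h libraries (limma adjusted p = 0.00228). Into 15 to 18 h Spry1 was higher (0.874% of all genes higher, 1.67% lower). From there into 19 to 23 h (0.44% and 1.13%) and on into 24 to 27 h (0.0126% and 0.145%) limma called 0 of the 7, with an unadjusted p under 0.05 for Spred2 and Spry1 at the first of these steps and for Spry1 at the second, and edgeR on whole reads called 0 as well.

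Per kilobase of annotated exon, the highest level of the first 10 h in series 1 was 5291 for Errfi1, 1113 for Spry2, 353 for Spry4, 337 for Spred1, 253 for Spry1, 216 for Spred2 and 54.9 for Spred3. Series 2 gave 4076, 906, 316, 284, 238, 184 and 51.8 in the same order of genes. Errfi1 and Spry2 thus stood well apart from the rest, and Spry4 and Spred1 lay close together in both. The recovered reads of Spred1 were not whole in many libraries, as with 363.5 and 638.5 in the starved libraries of series 1. The reason was not tested, and the level of Spred1 may not compare with the others. Among starved cells the order per kilobase was different. Spry2 led in series 1 with 399 before Errfi1 with 288, and in series 2 Errfi1 led with 587 before Spry2 with 401.

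Across the 29 shared hours the 2 series gave like courses for the members. Without the 27 h hour, the Pearson r of the log2 fold between series was 0.981 for Errfi1, 0.965 for Spry2, 0.963 for Spred1, 0.909 for Spry4, 0.901 for Spry1, 0.805 for Spred3 and 0.782 for Spred2, over 28 hours. Successive hours are not independent, and these values are a description. With the 27 h hour the r of Spry4 was 0.56. Over the libraries up to 32 h in series 1 and 26 h in series 2 (n = 88), Spry1 ran against every raised member, with r from -0.547 to -0.753. Spred1 and Spred2 had an r of 0.903 with each other in these libraries. Over all 95 libraries the r of Spry1 with the raised members was weaker. It was -0.448 with Spred2, -0.42 with Spred1, -0.245 with Errfi1, -0.0701 with Spry2 and -0.0219 with Spry4.

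The genes whose log2 values ran most like each member were sought among 10485 genes with a mean of 50 or more, over the 95 libraries. For Errfi1 they were Prdm1 (r 0.977), Hbegf (0.967), a ligand of the EGF receptor, and Dusp5 (0.952), a phosphatase of ERK. For Spry2 they were Dusp6 (0.945), Ch25h (0.927) and Egr2 (0.914), and for Spry4 Rgs16 (0.941), Phlda1 (0.918) and Dusp6 (0.898). For both Spred genes the likest genes were others. Spred1 was followed by Csnk1g3 (0.945), D8Ertd82e (0.944) and Tgoln1 (0.937), and Spred2 by Abhd2 (0.936), Creb3l2 (0.931) and Hivep3 (0.929). The likest to Spry1 was Bmp4 (0.851), before Ptplb (0.773) and Mylk (0.756), and to Spred3 Bcl2l1 (0.812), Ehbp1l1 (0.759) and Klc2 (0.750). The last hours moved some of these values. Over the 88 libraries without them, Spry4 had an r of 0.86 with Rgs16, 0.82 with Phlda1 and 0.77 with Dusp6. Spry2 had 0.89 with Dusp6, and the r of Spry1 with Mylk was higher, at 0.94. Libraries of 1 series are successive times, and no p is given.

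Errfi1 and Spry4 stood apart at the start of the time course, and both of them with Spry2 at its end. Both patterns were picked out after the values were seen, so they carry no test. At the start, Errfi1 rose from 1 h before serum to 0 h by 3.09-fold in series 1 and 1.98-fold in series 2, and Spry4 by 1.72-fold and 1.64-fold. Of genes with a mean of 50 or more, 0.982% had a ratio above 1.5 in both series. The ratios of the other 5 members lay between 0.696 and 1.25. With the starved libraries taken 1 h before serum alone as the baseline, the log2 change of Errfi1 at 2 to 3 h was 4.19 and that of Spry4 was 2.90.

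At the end of series 1 the 3 genes dropped below their starved level. Spry4, with 476 to 558 over 28 to 32 h (n = 5), fell to 160 at 33 h and then to 15.8, 17.6, 56.2, 69.1 and 73.5 at 34 to 38 h. With 1 added to each mean, the ratio of 34 to 38 h to 28 to 32 h was 0.0919, the second lowest among 10485 genes. All ratios of the last hours were taken with 1 added in this way. Errfi1 went from 2100 to 2672 over 28 to 32 h to 254 to 409 over 34 to 38 h, a ratio of 0.137, and Spry2 from 631 to 859 to 89.7 to 188, a ratio of 0.195. The 2 groups of hours did not overlap for these genes, nor for Spry1 and Spred3, so that 5 of 7 members lay lower without overlap, beside 13.1% of genes with a mean of 50 or more.

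The same 3 genes were low in the last library of series 2. At 27 h Spry4 was at 15.7, from 16 reads (95% Poisson interval 8.95 to 25.4 in signal, for counting error only), after 542 to 625 at 24 to 26 h (n = 3). Its ratio of 0.0279 was the lowest of all 10485 genes. Errfi1 was at 296 after 2421 to 3151, a ratio of 0.108, and Spry2 at 133 after 642 to 878, a ratio of 0.174. Series 1 showed nothing of the kind at 27 h, with 512, 2432 and 834 for Spry4, Errfi1 and Spry2.

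The drop differed in size between the members. Spry1 fell less than these 3 genes, with a ratio of 0.511 in series 1 and 0.422 in series 2. These ranked 179 and 63 from the lowest among 10485 genes. Spred3 fell less again, with 0.606 and 0.629. Spred1 (0.826 and 0.853) and Spred2 (0.951 and 0.849) stayed near their earlier level. A ratio under 0.5 was found for 3 of 7 members in series 1, where 1.59% of genes had one, and for 4 of 7 in series 2, where 0.925% did, while 0.61% did in both. A ratio above 2 was found for 0 members, and for 2.79% of genes in series 1 and 0.391% in series 2. No label marks a change of medium or handling at these hours, each library is a single sample, and what set the low values was not tested. The fibroblast markers summed to between 209700 and 253700 in these last libraries, inside their range of 188700 to 521700 in the other libraries after serum.

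**Figure D4:**
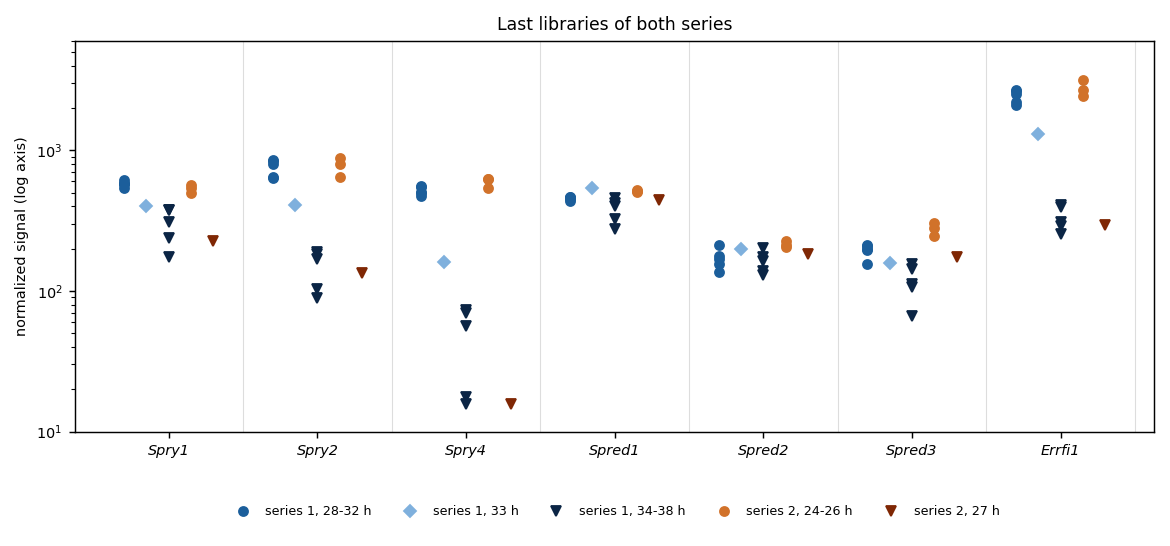
Normalized signal (log axis) of each gene in the last libraries, with 1 point per library, for 28 to 32 h, 33 h and 34 to 38 h of series 1 and 24 to 26 h and 27 h of series 2. Spry4, Errfi1 and Spry2 are far lower in the triangles than in the circles, and Spred1 and Spred2 lie near them.

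The rest of the pathway was read from lists chosen with earlier results of these data known. Of 15 ERK target genes, 8 were higher and 0 lower at 1 to 1.5 h, led by the AP-1 gene Fosl1 (log2 4.07 ± 0.41 SE), Dusp5 (3.78 ± 0.33) and Dusp4 (3.31 ± 0.24), the last 2 being phosphatases of ERK. The shares of all genes there were 3.45% and 4.9%. The count of higher genes stayed at 7 to 9 of 15 in every later window, beside 6.42% to 7.81% of all genes, and 3 or 4 were lower, beside 16.5% to 19.6%. Fos and Egr1, immediate early factors, ended below starved, with log2 changes of -5.36 and -3.50 at 24 to 27 h. In the last libraries, 11 of the 15 had a ratio under 0.5 in series 1 (1.59% of genes) and 10 in series 2 (0.925%). The lowest were Phlda1 (0.153), Dusp5 (0.172) and Dusp6 (0.175) in series 1.

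Among the 20 other negative regulators in the table, 7 were higher and 3 lower at 2 to 3 h, beside 6.93% and 18.6% of all genes, so that the lower share lay near that of all genes. Their median log2 change was 0.155, beside -0.319 for all genes. The named ones were Lrig3, a membrane protein that acts on the receptors (-2.09 ± 0.16 SE), Cblb, a ubiquitin ligase (1.69 ± 0.14), and Socs5, an inhibitor of receptor signalling (1.62 ± 0.10). At 4 to 6 h 6 were higher, beside 7.81% of all genes, and in each window from 7 to 10 h on 1 was, near the 6.42% to 7.29% of all genes. From 11 to 14 h on that gene was Dok1, an adaptor that recruits a Ras inactivator, at 2.64 ± 0.22 at 24 to 27 h. Il17rd, another inhibitor of FGF signalling (also called Sef), was lower, at -1.63 ± 0.18 at 4 to 6 h and -2.13 ± 0.17 at 24 to 27 h.

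The receptors and kinases that these inhibitors act on were counted in the same way. Of 19 receptors and adaptors, 0 were called at 1 to 1.5 h and 2 were higher at 2 to 3 h (6.93% of all genes), Fgfr1 (1.57 ± 0.18 SE) and Met (1.40 ± 0.16). From 7 to 10 h on, 3 were lower and 0 higher, a lower share near that of all genes (16.5% to 19.2%). They were Gab1, Erbb3 and Pdgfra, the last at -1.88 ± 0.14 at 24 to 27 h. Of 16 genes of Ras, Raf, MEK and ERK kinases, at most 1 was called in each direction in any window, a share under that of all genes. They were Ksr1, a scaffold, at -1.08 ± 0.24 at 2 to 3 h and Rras2, a Ras relative, at 1.44 ± 0.16 at 4 to 6 h. Of 9 known partners of Sprouty and Spred proteins, Cav1 (1.03 ± 0.12) was higher and Mknk1 (-1.24 ± 0.14) lower at 2 to 3 h, beside 6.93% and 18.6% of all genes. Nedd4, a ubiquitin ligase that acts on Sprouty proteins, was lower at 4 to 6 h (-1.55 ± 0.13).

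**Figure D5:**
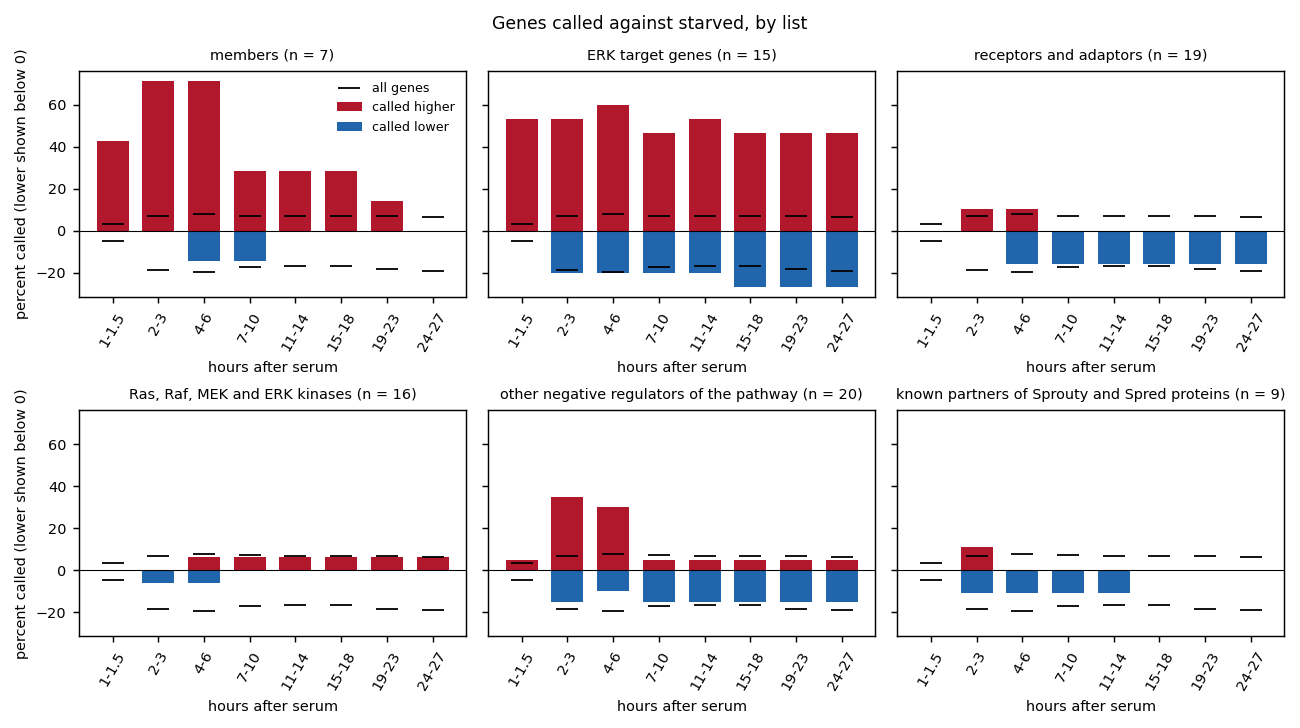
Percent of each list called higher (red) or lower (blue, below 0) against starved in 8 windows, with black marks at the percent of all genes. The members reach 5 of 7 higher at 2 to 3 h and 4 to 6 h and 0 of 7 at 24 to 27 h (2 of 7 without the 27 h libraries), and 7 of the 15 ERK target genes are higher in that window. The difference between the lists was not tested.

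The scaling of the libraries bears on small changes. TMM rescaling moved the median of all genes up by 0.15 log2 at 1 to 1.5 h, 0.25 at 2 to 3 h, 0.17 at 4 to 6 h and 0.12 at 7 to 10 h. The share of higher among called genes went from 41.3% to 54.2%, from 27.2% to 45.2%, from 28.5% to 38.9% and from 30.0% to 37.5% in these windows. Relative to the median of all genes the changes at 2 to 3 h were 3.86 for Errfi1, 2.85 for Spry4, 1.85 for Spred2, 1.80 for Spred1, 1.44 for Spry2, -0.0912 for Spred3 and -0.578 for Spry1. Each of the 22 called window changes of the members was also called under TMM, in the same direction.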

How the data were processed

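RNA of Cf-1 MEFs was measured in 2 series after serum. The authors demultiplexed the reads with CASAVA, used STAR for alignment to mm9 and HOMER for counting on exons, both strands included, and set all libraries to a common total. The deposited values are this normalized signal. Tool versions are not given in the sources used here. Of 96 columns, 95 were matched by name to a library, and 1 column of per-sample values matched no single library and was not used. Of the low values, 94.2% to 96.2% were whole multiples of the value of 1 read (tolerance 0.1 read), which gave the depth and the whole reads for edgeR 4.0.16.

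The 4 starved libraries and the 29 shared hours (62 libraries) were fitted in R 4.3.3 by limma 3.58.1 on log2(value + 1), a scale that understates folds of low genes, with 1 mean per hour and the series as a block. Windows were compared with starved cells and with the next window, adjusted (Benjamini-Hochberg) over all 15895 genes. Folds of single libraries were taken over the plain mean of the starved values of the series. Log2 changes were taken over the mean of the starved log2 values, so both measures differ where the starved values differ. Calls were made at an adjusted p below 0.05, and for windows the log2 change also had to exceed 1 in size. The pairing by series comes from the labels. Over 406 pairs of hours, deviations within a series had a median correlation of 0.303, and 97% were above 0.1. On simulated data with 200 of 15895 genes changed by 2 log2 at 2 to 3 h, limma recovered 199 with 5 false calls and edgeR 199 with 2. The simulated libraries were independent and had no series effect, so these figures check the code and not the error rate in these data.

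The members and lists were chosen with earlier results of these data known. Named are all 7 members, at most the 3 largest called changes per list and window, and the 3 genes most like each member. Leaving out the 27 h libraries, and using the starved libraries at 1 h before serum alone, were added after seeing the data. Genes are placed on NCBIM37 (mm9), and promoters are RefSeq sequences on GRCm38.p6. Descriptions were made in Python 3.11.15 with pandas 2.3.3.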

Additional observations from a re-analysis of the deposited data

How the results depend on the processing

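Pseudocounts of 0.5 and 10, a minimum mean of 10 and the trend and robust options of limma kept the direction and the call of each of the 38 called changes of members, windows and steps together. No setting reversed a called change. Each series alone is a small design. It was fitted by another model, with 1 mean per window, no block and the successive hours of a window as its spread (22 residual degrees of freedom against 31). Series 2 kept its low 27 h library there. In these fits 21 of the 38 calls were lost with series 2 alone (replicate 1 left out) and 5 with series 1 alone. The 2 counts thus do not compare the series on like terms. Over leaving out a series or a starved library, the number of members called higher ranged from 1 to 3 at 1 to 1.5 h, 2 to 5 at 4 to 6 h, 1 to 2 at 7 to 10 h, 0 to 2 at 11 to 14 h, at 15 to 18 h, at 19 to 23 h and at 24 to 27 h, and the number lower from 0 to 1 at 2 to 3 h. For the steps, left without a series, the number lower ranged from 0 to 1 into 2 to 3 h, 1 to 2 into 4 to 6 h, 1 to 5 into 7 to 10 h and 0 to 3 into 11 to 14 h, and the number higher was 0 into 11 to 14 h and 0 into 15 to 18 h. The starved library of series 1 taken 1 h before serum decided most of the changes near the fold limit, with 2 members higher at 4 to 6 h, 0 at 15 to 18 h and 0 at 19 to 23 h without it. Without the starved library of series 2 taken 1 h before serum 0 were higher at 19 to 23 h, and without its 0 h library 2 were higher there and 1 at 24 to 27 h.

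Without the replicate block, 5 of the 38 calls were lost, all of them steps, and 0 members were higher into 11 to 14 h and 0 into 15 to 18 h. The block changed no window call. With TMM 1 member was higher into 11 to 14 h and 0 into 15 to 18 h. By edgeR 1 was higher at 15 to 18 h, 1 at 24 to 27 h, 1 into 11 to 14 h and 0 into 15 to 18 h. Without the 27 h libraries 2 were higher at 24 to 27 h, 1 into 7 to 10 h and 1 into 19 to 23 h, and 1 was lower into 15 to 18 h. Spry4 and Spred3 were then lower into 7 to 10 h as well, and Spry4 into 11 to 14 h. With starved cells at 1 h before serum alone 2 were higher at 19 to 23 h and 1 at 24 to 27 h. The mean highest fold over the series of Errfi1, 12.7, was 8.69 over the 0 h library, that of Spry4, 6.84, was 5.46 over the 0 h library and 6.51 over means of 3 successive libraries, and the lowest of Spred3, 0.617, was 0.706 and 0.664. The causes were not tested. Among all genes at 2 to 3 h, 1102 higher and 2950 lower became 729 and 1896 with a pseudocount of 10 and 1543 and 1873 with TMM. Depth limits the lowest values, as with the 16 reads of Spry4 at 27 h of series 2.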
